A study of Homo sapiens with 6 samples.

Results

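The genes described here are 9 components of the transforming growth factor beta (TGF-beta) pathway, the ligands TGFB1 and TGFB2, the receptors TGFBR1 and TGFBR2, the SMAD proteins SMAD2, SMAD3, SMAD4 and SMAD7, and the SMAD corepressor SKIL. They were named by symbol from the 60666 genes that the expression table lists outside alternative contigs. Earlier results of these data were known when the 9 genes and the lists below were chosen. Their shares set beside those of all genes are therefore descriptions. All 9 belonged to the 12025 genes that averaged 1 FPKM or more across the whole set of 6 samples and were tested. FPKM is a fragment count divided by the length of the transcript and by the sample's mapped total, so levels can be compared between genes. Gene positions are those of the table, on GRCh38.

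The cells were hTERT-RPE1-TOShOFD1, a derivative of RPE1, a human retinal pigment epithelial line immortalized with telomerase. A lentivirus had given them a Tet-On cassette, in which doxycycline switches on a short hairpin RNA (shRNA) against OFD1, a protein of centriolar satellites. RNA-seq was performed on 3 control samples without doxycycline and 3 OFD1-depleted samples given 200 ng/mL doxycycline, each at 72 h, and all 6 carried the cassette and the genotype label WT. No sample received doxycycline without the hairpin, so doxycycline, other targets of the hairpin and loss of OFD1 cannot be told apart. The study calls its replicates biological, and neither it nor the labels say whether they were separate cultures, so p-values measure only the spread between these samples, which may be technical.

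In this pathway a secreted dimer, held latent in the matrix until released, binds a type II receptor (TGFBR2), which phosphorylates a type I receptor (TGFBR1). The type I receptor phosphorylates SMAD2 and SMAD3, which join SMAD4 and enter the nucleus to regulate genes. SMAD7 blocks the receptors and SKIL represses the SMAD complex, and both are themselves induced by the signal, while in retinal pigment epithelium the pathway is best known for driving a shift towards a mesenchymal state.

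SMAD2 and SMAD3, the receptor-regulated SMADs, fell after OFD1 depletion, and TGFB2 rose. SMAD2 averaged 45.9% and SMAD3 55.8% of control, and TGFB2 was 1.55-fold higher. By limma on log2(FPKM + 0.1), with p-values adjusted by Benjamini and Hochberg over all 12025 genes and a threshold of 0.05, 2 of the 9 genes passed in the lower direction, against 11.9% of all genes tested. In the higher direction 1 of the 9 passed, against 5.07% of all genes. Control and OFD1-depleted values did not overlap for 3 of the 9, the same 3 genes, against 36.1% of all genes. The other 6, TGFB1, both receptors, SMAD4, SMAD7 and SKIL, did not pass. The median log2 fold change of the 9 genes was -0.01, beside -0.03 for all genes tested.

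**Figure D1:**
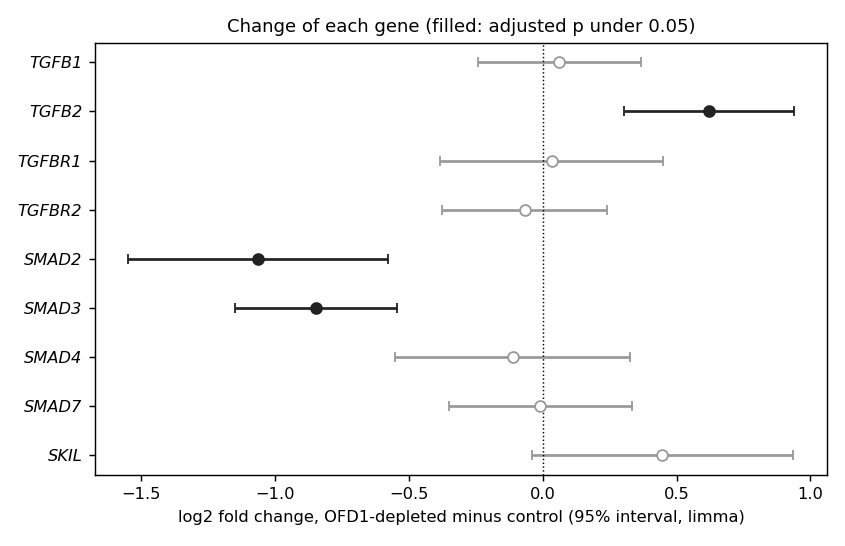
Log2 fold change of each of the 9 genes (x axis, OFD1-depleted minus control, on log2(FPKM + 0.1)), with its 95% interval from limma over 3 samples a group. Filled points mark an adjusted p under 0.05, which are TGFB2 at 0.62, SMAD2 at -1.06 and SMAD3 at -0.85.

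OFD1, the target of the hairpin, fell to 28.7% of control (adjusted p = 0.00085 from limma). OFD1-depleted replicate 2 stood apart from its group. Its FPKM summed to 493510, while depleted replicates 1 and 3 summed to 444337 and 433262 and controls to between 408302 and 414547. The sums thus did not overlap between groups. The median distance of replicate 2 from its own replicates was 0.300 on the log2 scale, while the other 5 samples ranged from 0.111 to 0.197. Replicate 2 held the lowest value of its group for 48.1% of genes tested and for 6 of the 9 genes. The changes of the 9 genes are therefore also given without that sample. Of 8 markers of retinal pigment epithelium, 2 (MITF and OTX2) reached a mean of 1 FPKM, and RPE65, RLBP1 and TYR were at or near 0 in all samples. All 5 mesenchymal markers and 2 of 5 epithelial ones (KRT8 and KRT18) reached it. None of 6 photoreceptor or 4 endothelial markers did, and 1 of 4 leukocyte markers did (CD68), with CD3E and AIF1 at 0.

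For the pair of ligands and for SKIL, RefSeq has 1 promoter window each, and the bases upstream of it are shown because TGFB2 passed the test, TGFB1 did not, and SKIL spread widely among depleted samples. The bases are from RefSeq on GRCh38.p14, 5′ to 3′ on the strand of the gene. TGFB1 and TGFB2 are given for the 250 bases before the start site and SKIL for the first 213 of its 250, because the expression table starts the gene earlier. Capitals mark matches to a TATA box (TATAAA), a cyclic AMP response element (TGACGTCA), an E-box (CACGTG) or a SMAD box (CAGAC), on either strand.
TGFB2, chr1:218345086-218345335, plus strand: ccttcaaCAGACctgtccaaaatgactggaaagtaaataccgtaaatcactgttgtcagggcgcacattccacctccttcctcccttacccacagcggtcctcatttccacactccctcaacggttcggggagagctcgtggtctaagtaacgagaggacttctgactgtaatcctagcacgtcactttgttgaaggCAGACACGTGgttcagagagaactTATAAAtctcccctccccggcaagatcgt
TGFB1, chr19:41353923-41354172, minus strand: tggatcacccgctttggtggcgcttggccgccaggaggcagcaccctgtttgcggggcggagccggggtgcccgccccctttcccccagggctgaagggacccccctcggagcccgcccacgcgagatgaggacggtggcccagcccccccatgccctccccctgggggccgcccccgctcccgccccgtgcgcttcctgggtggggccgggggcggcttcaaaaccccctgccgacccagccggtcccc
SKIL, chr3:170357465-170357677, plus strand: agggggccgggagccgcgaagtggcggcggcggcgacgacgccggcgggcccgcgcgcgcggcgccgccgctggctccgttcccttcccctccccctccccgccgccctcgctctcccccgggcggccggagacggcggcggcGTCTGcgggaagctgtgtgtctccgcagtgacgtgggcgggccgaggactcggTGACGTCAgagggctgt

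The TGFB2 stretch held a TATA box that starts 29 bases before the start site, an E-box at 49 and SMAD boxes at 243 and 53, the last of which shares its final base with the E-box. Its G+C content was 50.4%. The TGFB1 stretch held none of the motifs and was 76.8% G+C. The SKIL stretch, at 79.8% G+C, held a cyclic AMP response element 54 bases before the start site and a SMAD box at 107. Of 35116 RefSeq promoter windows, a TATA box was present in the 250 upstream bases of 10.7%, a cyclic AMP response element in 1.65%, an E-box in 6.34% and a SMAD box in 38.0%. The SMAD box is short and common, and a match is a description of letters, not of binding. All 9 genes had at least 1 window in the table. They had 24 windows in all, from 1 each for TGFB1, TGFB2, SKIL and SMAD4 to 8 for TGFBR1. In any of their windows, 5 of the 9 held a SMAD box, 2 a TATA box, 2 an E-box and 1 a cyclic AMP response element. These are counts of genes over all their windows, so they cannot be set beside the shares of single windows above. SMAD7 and TGFBR1, which did not pass the test, held SMAD boxes, and SMAD7 also a TATA box 35 bases before a start site. SMAD3, which fell, held an E-box and SMAD boxes, in different windows of its 5. SMAD2, which also fell, held none of the motifs in its 2 windows. A link between the motifs and the changes was not tested.

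TGFB1 was the most abundant of the 9 genes in both groups. It had 125, 113 and 141 FPKM in controls 1, 2 and 3, against 129, 147 and 120 FPKM in depleted samples 1, 2 and 3, and the groups overlapped. Control samples averaged 126 ± 14.1 FPKM and depleted samples 132 ± 13.9 FPKM (SD, n = 3 each). The log2 fold change was 0.06 with a 95% interval from -0.24 to 0.37 (adjusted p = 0.802 from limma), and its sign turned to -0.08 under TPM scaling and to -0.02 without depleted replicate 2. TGFB1 (ENSG00000105329, chromosome 19 from 41301587 to 41353922 on the minus strand) shares its span with HNRNPUL1 on the other strand, at a mean of 80.6 FPKM. The strand setting of the counting is not given in the sources used here, so the level of TGFB1 is uncertain to that extent.

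TGFB2 encodes the ligand isoform that binds TGFBR2 weakly without a coreceptor. It measured 40.4, 36.4 and 39.1 FPKM in controls 1 to 3, against 66.5, 48.6 and 64.8 FPKM in depleted samples 1 to 3. Every depleted sample was above every control, and depleted replicate 2 was the nearest to the controls. Control samples averaged 38.6 ± 2.0 FPKM and depleted samples 59.9 ± 9.84 FPKM (SD, n = 3 each). The log2 fold change was 0.62 (standard error 0.145, 95% interval 0.30 to 0.94, adjusted p = 0.0136 from limma). An exact two-sided permutation test gave p = 0.1, below which groups of 3 and 3 cannot go.

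The call on TGFB2 was close to the threshold. Without depleted replicate 2 the change was 0.76 (adjusted p = 0.000937 from limma), whereas the adjusted p was 0.0580 without depleted replicate 1, 0.0532 without control replicate 2 and 0.0505 without control replicate 3. Under TPM scaling, which sets the sum of each sample to the same value, the change was 0.47 with an adjusted p of 0.0700. Over all 17 alternatives the adjusted p of limma ranged from 0.000246 to 0.0702 and the change stayed between 0.47 and 0.76. TGFB2 (ENSG00000092969, chromosome 1 from 218345336 to 218444619 on the plus strand) overlaps the antisense TGFB2-AS1, which reached at most 0.293 FPKM.

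Within each sample, the ratio of TGFB2 to TGFB1 does not depend on scaling. It was 0.322, 0.323 and 0.277 in control replicates 1, 2 and 3 and 0.516, 0.331 and 0.541 in the OFD1-depleted replicates. TGFB2 thus made up between 21.7% and 24.4% of the summed FPKM of both ligands in controls and between 24.8% and 35.1% in depleted samples, with depleted replicate 2 just above the highest control. The mean log2 ratio was higher by 0.56, with no overlap (exact two-sided permutation test, p = 0.1 and 0.4 after adjustment over the 4 ratios tested), so it did not pass. Without depleted replicate 2 the difference was 0.78.

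**Figure D2:**
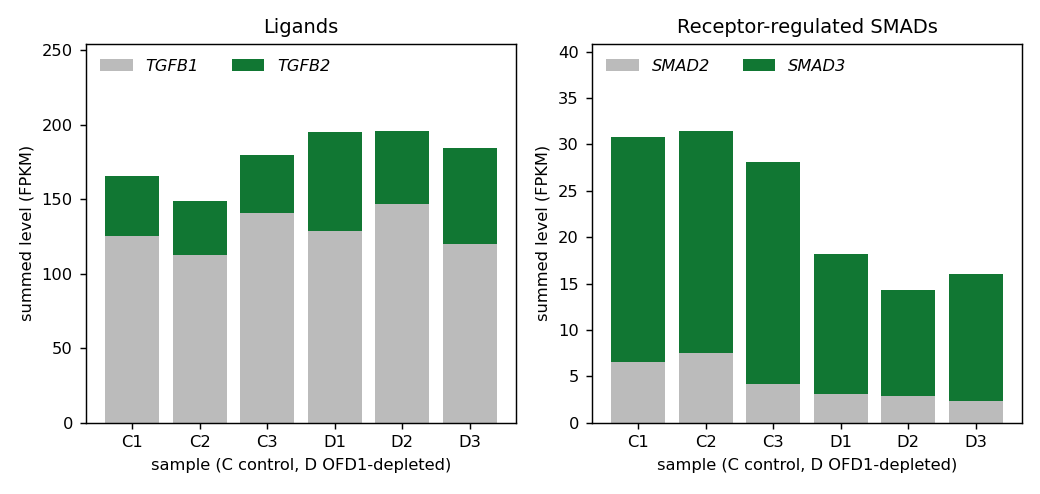
Stacked bars of FPKM in every sample for TGFB1 and TGFB2 (left) and for SMAD2 and SMAD3 (right), with controls C1 to C3 and OFD1-depleted samples D1 to D3 by replicate number. The SMAD2 and SMAD3 sums were 28.1 to 31.4 FPKM in controls and 14.3 to 18.2 FPKM in depleted samples.

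Neither receptor passed the test. TGFBR1, the type I receptor kinase (ENSG00000106799, chromosome 9 from 99104038 to 99154192), measured 8.21, 9.61 and 8.66 FPKM in controls 1 to 3, against 9.85, 6.60 and 11.3 FPKM in depleted samples 1 to 3. Depleted replicate 2 was the lowest and replicate 3 the highest of all 6 samples, so the control values lay inside the depleted range. TGFBR1 had a log2 fold change of 0.03 and a 95% interval from -0.38 to 0.45 (adjusted p = 0.927 from limma), and it was -0.11 under TPM scaling and 0.26 without depleted replicate 2.

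TGFBR2, the type II receptor (ENSG00000163513, chromosome 3 from 30606601 to 30694142), measured 30.7, 29.1 and 27.4 FPKM in controls 1 to 3, against 31.9, 23.7 and 28.2 FPKM in depleted samples 1 to 3. Here too replicate 2 was the lowest and the groups overlapped. For TGFBR2 the log2 fold change was -0.07 with a 95% interval from -0.37 to 0.24 (adjusted p = 0.788 from limma), and it was 0.05 without depleted replicate 2. The ratio of TGFBR1 to TGFBR2 ranged from 0.267 to 0.33 in controls and from 0.279 to 0.400 in depleted samples (exact permutation p = 0.7, also 0.7 after adjustment).

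SMAD3 had the lowest adjusted p of the 9 genes. It measured 24.3, 23.9 and 24.0 FPKM in controls 1 to 3, a spread of 0.185 FPKM (SD, n = 3), against 15.2, 11.4 and 13.7 FPKM in depleted samples 1 to 3. All depleted values were well below all control values. The mean fell from 24.0 to 13.4 ± 1.90 FPKM (SD, n = 3), or 1.79-fold, and the log2 fold change was -0.85 (standard error 0.137, 95% interval -1.15 to -0.55, adjusted p = 0.00168 from limma). SMAD3 passed under all 17 alternatives, with changes from -0.996 to -0.735, the smallest of them without depleted replicate 2. The gene (ENSG00000166949) lies on chromosome 15 from 67063763 to 67195173.

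SMAD2 had the lowest mean of the 9 genes in both groups. It measured 6.58, 7.49 and 4.14 FPKM in controls 1 to 3, against 3.05, 2.92 and 2.38 FPKM in depleted samples 1 to 3. The lowest control, replicate 3, was still above the highest depleted sample. The mean fell from 6.07 ± 1.73 to 2.78 ± 0.353 FPKM (SD, n = 3 each), or 2.18-fold, with a log2 fold change of -1.06 (standard error 0.220, 95% interval -1.55 to -0.58, adjusted p = 0.00719 from limma). It passed in all 6 fits that left out 1 sample, with changes from -1.31 to -0.89 (-1.10 without depleted replicate 2), and was not past the threshold when genes under 1 FPKM were also tested (adjusted p = 0.0766, in a range of 0.000780 to 0.0766 over 16 alternatives). SMAD2 (ENSG00000175387, chromosome 18 from 47808957 to 47931146) contains a pseudogene, MTCO2P2, at a mean of 0.904 FPKM.

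Whether SMAD2 and SMAD3 fell by different factors was not resolved with 3 samples a group. The ratio of SMAD3 to SMAD2 was 3.68, 3.19 and 5.78 across controls 1 to 3, against 4.98, 3.91 and 5.73 across depleted samples 1 to 3. The ranges overlapped, and the mean log2 ratio differed by 0.24 (exact two-sided permutation test, p = 0.5, adjusted p = 0.667). Their summed level went from between 28.1 and 31.4 FPKM in controls to between 14.3 and 18.2 FPKM in depleted samples. In bulk RNA, fewer cells of a type and less RNA per cell cannot be told apart.

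SMAD4, the partner shared by all receptor-regulated SMADs, did not pass. It measured 6.53, 7.29 and 5.87 FPKM in controls 1 to 3, against 7.37, 4.34 and 6.89 FPKM in depleted samples 1 to 3, with the low value again in replicate 2. For SMAD4 the log2 fold change was -0.11 with a 95% interval from -0.55 to 0.33 (adjusted p = 0.748 from limma), and it was 0.12 without depleted replicate 2 and 0.02 after quantile normalization. SMAD4 (ENSG00000141646) lies on chromosome 18 from 51028394 to 51085045.

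The inhibitors SMAD7 and SKIL did not pass either, and their spreads differed. SMAD7, the inhibitory SMAD (ENSG00000101665, chromosome 18 from 48919853 to 48952052), measured 9.64, 8.87 and 12.8 FPKM in controls 1 to 3, against 10.2, 10.7 and 9.81 FPKM in depleted samples 1 to 3. All depleted values fell inside the control range. For SMAD7 the log2 fold change was -0.01 with a 95% interval from -0.35 to 0.33 (adjusted p = 0.977 from limma), and it was 0.05 under median-of-ratios scaling, 0.08 after quantile normalization and -0.04 without depleted replicate 2.

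SKIL, also called SnoN (ENSG00000136603, chromosome 3 from 170357678 to 170396835), measured 8.52, 8.41 and 8.05 FPKM in controls 1 to 3, against 11.5, 7.82 and 16.5 FPKM in depleted samples 1 to 3. Replicates 1 and 3 were above every control, and replicate 2 was below every control. Control samples averaged 8.33 ± 0.247 FPKM and depleted samples 11.9 ± 4.34 FPKM (SD, n = 3 each). The log2 fold change was 0.45 with a 95% interval from -0.04 to 0.93 (adjusted p = 0.201 from limma). It passed in 2 of 17 alternatives, without depleted replicate 2 (0.72, adjusted p = 0.0108) and with array weights, which let limma give less weight to variable samples (0.66, adjusted p = 0.00569), in a range of 0.00569 to 0.571. The ratio of SKIL to SMAD7 overlapped between groups, from 0.631 to 0.949 in controls and from 0.731 to 1.68 in depleted samples (exact permutation p = 0.4, adjusted p = 0.667).

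**Figure D3:**
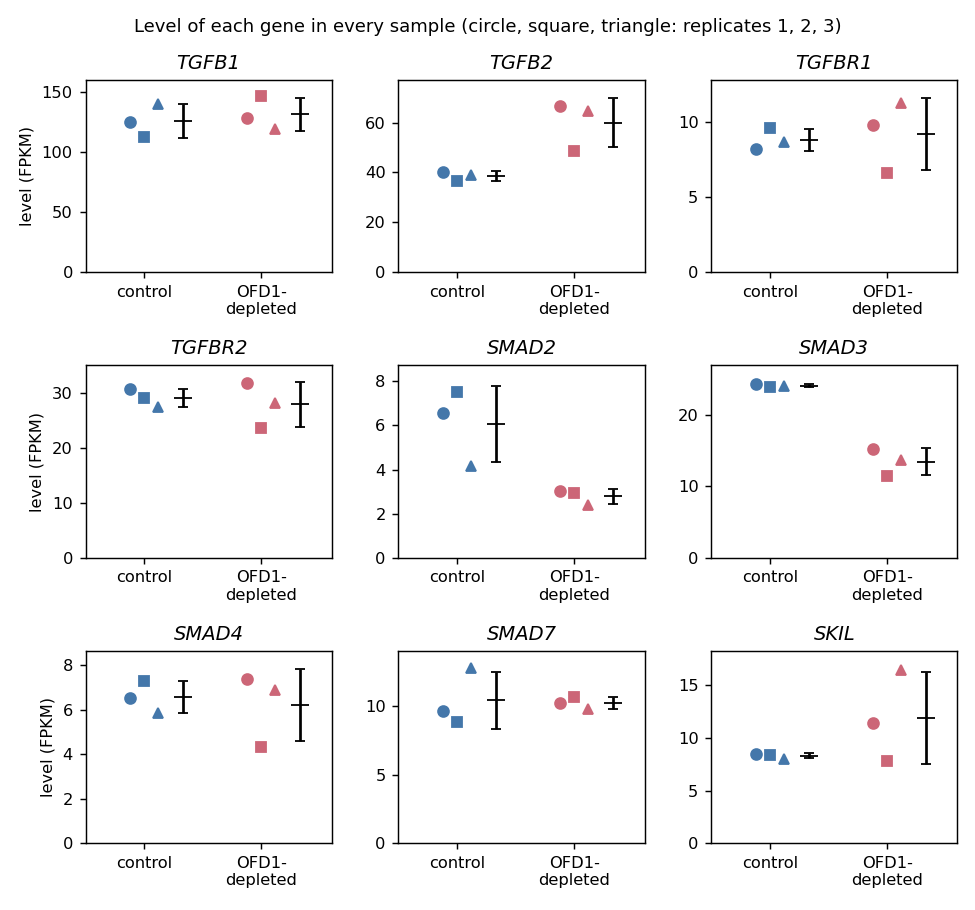
FPKM of each of the 9 genes in every sample (y axes start at 0 and differ between panels), with circles, squares and triangles for replicates 1, 2 and 3 and a bar for the mean ± SD of 3 samples. TGFB2, SMAD2 and SMAD3 are the panels in which control and OFD1-depleted points do not overlap, and depleted replicate 2 is the lowest of its group in 6 of 9.

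In control cells the levels ran, from high to low, TGFB1, TGFB2, TGFBR2, SMAD3, SMAD7, TGFBR1, SKIL, SMAD4 and SMAD2. The ranges of neighbours overlapped between SMAD7 and TGFBR1, TGFBR1 and SKIL, and SMAD4 and SMAD2, and were separate elsewhere. In OFD1-depleted cells TGFB1, TGFB2 and TGFBR2 kept the first 3 places, while SMAD3 at 13.4 FPKM overlapped SKIL at 11.9 FPKM, and SKIL, SMAD7, TGFBR1 and SMAD4 each overlapped the next. SMAD2 stayed last, separate from SMAD4. Ligand transcripts thus exceeded those of the receptors in each group, and TGFBR2 exceeded TGFBR1 in every sample.

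The rest of the pathway was read through 6 lists of 80 genes in all, with PMEPA1 and LTBP2 in more than 1 list, of which 61 were tested, with 5 lower (8.2%) and 8 higher (13.1%) past the threshold, beside 11.9% and 5.07% of all genes tested. Each list below holds too few genes for its own share to be read against those of all genes. Without depleted replicate 2, the calls on GDF6, BMP2, ITGB5, THBS1, ITGB8, SMAD6, PMEPA1, USP9X, SKI, COL1A1 and ACTA2 were all kept in the same direction. Among 14 other ligands of the family, 5 were tested and 2 were higher. GDF6, a growth and differentiation factor, had 89.4, 80.2 and 94.3 FPKM in controls 1 to 3 and 151, 125 and 129 FPKM in the depleted ones (log2 fold change 0.61, adjusted p = 0.00870 from limma). BMP2, a bone morphogenetic protein, went from 2.05 ± 0.478 to 4.13 ± 0.786 FPKM (SD, n = 3 each; 0.98, adjusted p = 0.0101 from limma), and it passed in 15 of 16 alternatives, all but the one with no filter (adjusted p = 0.0750). For both genes every depleted value was above every control, and INHBA, the activin A subunit, did not pass (-0.34, adjusted p = 0.193 from limma). TGFB3, the remaining TGF-beta isoform, averaged 0.252 FPKM in controls and was not tested.

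Genes that hold or release latent TGF-beta moved both ways. Of 10 tested, ITGB5 was lower, THBS1 and ITGB8 were higher, and the median log2 fold change was -0.23. Thrombospondin 1, THBS1, a matrix protein that activates latent TGF-beta, had 220, 203 and 260 FPKM in controls and 537, 355 and 522 FPKM in depleted samples (1.03, adjusted p = 0.00251 from limma). ITGB5 and ITGB8 encode integrin beta subunits that pair with the alpha v subunit. ITGB5 fell from 120 ± 15.7 to 63.6 ± 6.12 FPKM (-0.91, adjusted p = 0.00121 from limma) and ITGB8 rose from 2.08 ± 0.0410 to 4.27 ± 1.05 FPKM (0.97, adjusted p = 0.00851 from limma), each with n = 3 and SD. The 3 genes were among 6 of the 10 with no overlap between groups, beside 36.1% of all genes tested. LTBP3 (-0.37, adjusted p = 0.0925 from limma), LTBP4 (-0.31, adjusted p = 0.163) and FURIN (-0.42, adjusted p = 0.0724) also showed none. They were lower without passing and were named after their values were seen. Under TPM scaling or with array weights, 3 genes of this list were lower in place of 1. With no filter on low values, neither THBS1 (adjusted p = 0.0527) nor ITGB8 (adjusted p = 0.0649) passed, while ITGB5 passed under all 17 alternatives.

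None of the 7 tested genes for other receptors and coreceptors passed by limma at the adjusted threshold, with a median of 0.14. The smallest p-values were those of BAMBI, a pseudoreceptor that dampens the signal (0.41, adjusted p = 0.0542 from limma), ACVR1 (0.43, adjusted p = 0.0672 from limma), a type I receptor, and ACVR1B (0.14, adjusted p = 0.620 from limma), the activin type I receptor. BAMBI and ACVR1 each had an unadjusted p under 0.05, at 0.00954 and 0.0130, and ACVR1 passed without depleted replicate 2 (0.56, adjusted p = 0.00894, in a range of 0.00404 to 0.274 over its alternatives). BAMBI passed in 4 of 17 alternatives, with adjusted p from 0.0300 to 0.193, and 2 of the 7 genes were higher under median-of-ratios scaling, quantile normalization or array weights.

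Among the other SMADs, 1 of 3 tested passed. SMAD6, the inhibitory SMAD that acts mainly on bone morphogenetic protein signals, had 4.45, 3.74 and 5.0 FPKM in controls and 2.76, 2.13 and 1.85 FPKM in depleted samples (-0.95, adjusted p = 0.00789 from limma). All depleted values lay below all controls, and it passed in 14 of 16 alternatives, but not with no filter (adjusted p = 0.0588) or without control replicate 3 (adjusted p = 0.05004). SMAD1 (0.22, adjusted p = 0.382 from limma) and SMAD5 (0.02, adjusted p = 0.955 from limma), the SMADs that bone morphogenetic protein receptors phosphorylate, did not pass, and SMAD5 turned to -0.12 under TPM scaling.

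Of 16 regulators of the signal, all tested, 3 were lower and none was higher by limma at the adjusted threshold, with a median of 0.06. PMEPA1, a SMAD-sequestering membrane protein that TGF-beta itself induces, had 6.93, 7.11 and 7.91 FPKM in controls and 3.53, 3.18 and 3.09 FPKM in depleted samples (-1.14, adjusted p = 0.000367 from limma). It passed under all 17 alternatives. The SMAD4 deubiquitinase USP9X (-0.67, adjusted p = 0.0257 from limma) and the corepressor SKI, a relative of SKIL (-0.49, adjusted p = 0.0365 from limma), were closer to the threshold and passed in 12 and 10 of 17 alternatives. Without any 1 of the controls, or with no filter, the lower regulators numbered 1 in place of 3, while array weights called 4 higher and leaving out depleted replicate 2 called 2. Of the regulators that were higher but not past the threshold, NEDD4L, STRAP and FKBP1A, named after their values were seen, had unadjusted p-values of 0.0262, 0.0414 and 0.0168 from limma. In the lower direction PPM1A, also named after its values were seen, had an unadjusted p of 0.044 from limma (-0.41, adjusted p = 0.149).

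Genes known to respond to TGF-beta also moved both ways. Of 24, 22 were tested, 4 were higher and 1, PMEPA1, was lower, with a median of 0.14. COL1A1, the fibrillar collagen chain, had 7.66, 8.42 and 9.96 FPKM in controls and 28.5, 21.9 and 23.0 FPKM in depleted samples, a 2.82-fold rise (1.48, adjusted p = 9.4e-05 from limma). ACTA2, smooth muscle actin, had 237, 260 and 217 FPKM in controls and 596, 730 and 570 FPKM in depleted samples, a 2.65-fold rise (1.40, adjusted p = 0.000104 from limma). Neither overlapped between groups, and both passed under all 17 alternatives. Reads shared among near-identical actin transcripts may have been divided between genes, so the level of ACTA2 is uncertain.

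The other pair of target genes that rose was TAGLN (0.55, adjusted p = 0.0423 from limma), an actin-binding protein of contractile cells, and CDKN1A (0.47, adjusted p = 0.0406 from limma), the cell cycle inhibitor p21. Both calls were close to the threshold and passed in 10 of 17 alternatives. They were lost with no filter, TPM scaling or limma without the trend, and without depleted replicate 1 or any 1 of the controls, with adjusted p from 0.00721 to 0.189 for TAGLN and from 0.0106 to 0.155 for CDKN1A over all alternatives. Both were named after their values were seen, as was CCN2, a matricellular protein often read as a reporter of the pathway. CCN2 had a mean of 986 ± 65.6 FPKM in controls and 1292 ± 160 FPKM in depleted samples (SD, n = 3 each), with a log2 fold change of 0.38 (adjusted p = 0.116 from limma). Its groups did not overlap, and it did not pass. The count of higher target genes, 4, was 7 without depleted replicate 2 and 2 without depleted replicate 1, control replicate 1 or control replicate 3, and the lower count was 2 without depleted replicate 2 and 3 under TPM scaling. COL1A1 and FN1 also belong to the 5 mesenchymal markers, of which COL1A1 was higher and CDH2, N-cadherin, was lower (-0.47, adjusted p = 0.0387 from limma, past the threshold in 8 of 17 alternatives). The summed level of the 5 was 5620 to 6650 FPKM in controls and 5150 to 5770 FPKM in depleted samples. Most of that sum was VIM, at means of 4288 FPKM in controls and 3763 FPKM in depleted samples, and FN1, at 1765 and 1656 FPKM. Neither passed (adjusted p = 0.474 and 0.807 from limma), although VIM was lower in every depleted sample than in any control. The part of the 5 markers in the result was not tested.

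**Figure D4:**
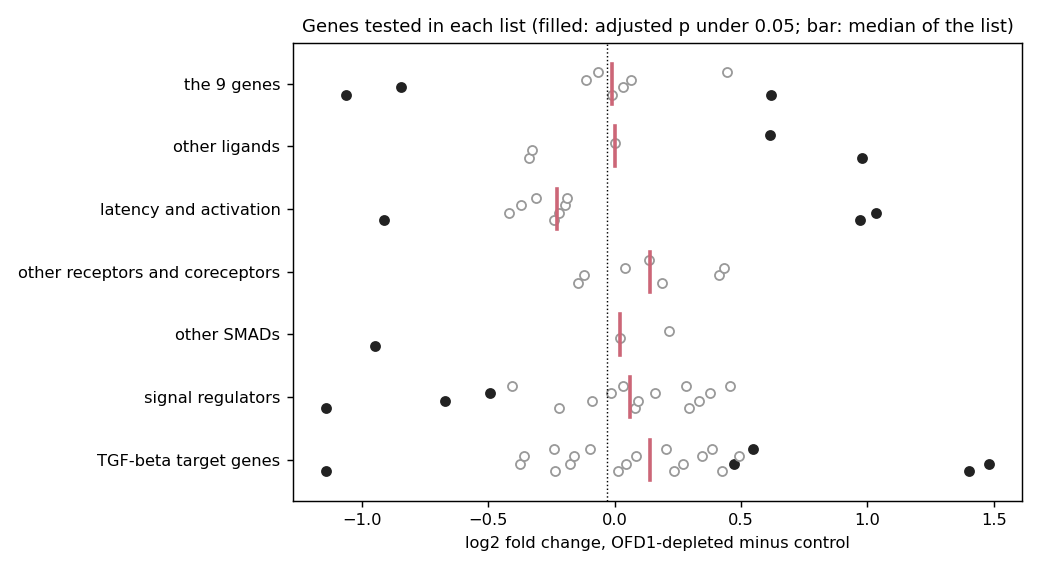
Log2 fold changes (x axis, OFD1-depleted minus control) of the 9 genes and of the tested genes in the 6 other lists, 1 point per gene, with points filled where the adjusted p was under 0.05, a bar at the median of each list and a dotted line at the median of all genes tested, -0.03. Points spread to both sides in most lists, from PMEPA1 at -1.14 to COL1A1 at 1.48.

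For each of the 9 genes, the single other gene whose log2 levels followed it most closely over the 6 samples was found by Pearson correlation. For SMAD3 it was NCAPD2, a condensin subunit (r = 0.9996), and 782 tested genes had r above 0.95 with SMAD3. For TGFB2 it was SIK1, a salt-inducible kinase (r = 0.998, with 179 genes above 0.95), and for SMAD2 it was ZFYVE21 (r = 0.998, with 70). The others were EFNA4 for TGFB1, PRPF38A for TGFBR1, RABEP1 for TGFBR2, TOR1AIP1 for SMAD4, PCDHGA9 for SMAD7 and C5orf15 for SKIL, with r from 0.977 to 0.997. These are descriptions over 6 samples that form 2 groups, so that genes which differ between the groups tend to correlate with each other.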

How the data were processed

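By the study's methods and the submitters' processing notes, the authors aligned paired-end reads of directional libraries to GRCh38 with HISAT2 (version 2.0.5) and deposited FPKM per gene and sample from StringTie, whose version is not given in the sources used here. The extraction text of the labels names a directional kit but also retinas and a TruSeq kit, at odds with the cell line and the methods, so strandedness is uncertain. No read counts were used, and depth per sample was not estimated. Genes on alternative contigs were left out. The test was limma (version 3.58.1, R 4.3.3) with a variance trend, two-sided, on log2(FPKM + 0.1), in genes averaging 1 FPKM or more, with Benjamini-Hochberg adjustment and a threshold of 0.05. Fold changes on this scale understate changes of low genes. Ratios within a sample and single genes were compared by exact permutation. The limma fit was tested on simulated data, and the other steps were run in Python 3.11.15. Other settings tried were a pseudocount of 1 or 0.01, no filter or a minimum mean of 5 FPKM, 4 rescalings, limma without the trend or with array weights, a replicate block, and each sample left out. The 9 genes, the lists and the alternatives were chosen with earlier results of these data known. Named genes were OFD1, the 9, the 3 of each list with the smallest p-values, and the closest pattern per gene, with exceptions stated.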

Additional observations from a re-analysis of the deposited data

How the results depend on the processing

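SMAD3 passed under all 17 alternatives, SMAD2 under 15 of 16 and TGFB2 under 11 of 17. TPM scaling moved the median of all genes by -0.147 and quantile normalization by 0.107 on the log2 scale. TGFB2 missed the threshold with no filter (0.62), TPM scaling (0.47) and equal totals without mitochondrial genes (0.56), and ranged from 0.54 to 0.76 when a sample was left out. SMAD2 missed it with no filter (-1.06), and SKIL passed with array weights (0.66) and ranged from 0.18 to 0.72 when a sample was left out. Signs turned for TGFB1 under TPM scaling (-0.084) and array weights (-0.023), for TGFBR1 under TPM scaling (-0.11) and without mitochondrial genes (-0.024), for SMAD4 under quantile normalization (0.02) and array weights (0.085), and for SMAD7 under median-of-ratios scaling (0.046) and quantile normalization (0.083). When a sample was left out TGFB1 ranged from -0.018 to 0.14, TGFBR1 from -0.13 to 0.26, TGFBR2 from -0.168 to 0.046, SMAD4 from -0.25 to 0.12, SMAD7 from -0.12 to 0.15 and the log2 ratio of TGFBR1 to TGFBR2 from -0.048 to 0.213. Outside the 9 genes, ACVR1B turned to -0.009 and SMAD5 to -0.12 under TPM scaling, and SMAD5 to -0.036 without mitochondrial genes and from -0.15 to 0.26 when a sample was left out. Of all genes, the test called 1429 lower and 610 higher. With no filter these were 823 and 260, with array weights 2263 and 1693. The higher calls were 264 under TPM scaling and 1093 under quantile normalization. Leaving out a sample gave 882 to 1766 lower and 252 to 1097 higher, the fewest without control replicates 3 and 1 and the most without depleted replicate 2. Of the 9 genes, 1 was lower with no filter and 1 with a minimum of 5 FPKM, where SMAD2 was not tested. Higher calls by limma were 0 with no filter, TPM scaling or equal totals without mitochondrial genes, 2 with array weights, and 0 to 2 when a sample was left out, as TGFB2 and SKIL crossed the threshold. The cause of these shifts was not tested.

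Whether the numbers of the replicates pair the samples was not resolved. Deviations of samples with the same number correlated weakly, at 0.011 to 0.058, and those with different numbers at -0.08 to 0.05. The closest sample of the other group had the same number for 2 of 3 controls and 2 of 3 depleted samples. With the replicate block 1534 genes were lower and 762 higher, and of the 9 genes 2 were lower and 1 higher, as without it. The table gives no counts, so depth limits could not be set, and 3 samples a group cannot give an exact p below 0.1.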

Other observations

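The 19 pathway genes under the mean of 1 FPKM were not tested in the report. Among them, ACVR2B, SMAD9, BMP6, GDF5, LRRC32 and ACVR1C had control and OFD1-depleted values that did not overlap. Of all genes tested, 36.1% had no overlap, so its absence does not set these genes apart. The type II activin receptor ACVR2B went from 0.734 ± 0.0786 to 0.207 ± 0.0707 FPKM (SD, n = 3 each), SMAD9 from 1.06 ± 0.155 to 0.435 ± 0.118 FPKM, and the ligand BMP6 from 0.613 ± 0.187 to 0.209 ± 0.0750 FPKM. GDF5, a ligand related to GDF6, went from 0.0413 ± 0.0493 to 0.410 ± 0.125 FPKM. In limma without the filter, the adjusted p was 0.0721 for ACVR2B, 0.114 for SMAD9, 0.171 for BMP6 and 0.0545 for GDF5, so none passed. LRRC32 and ACVR1C were higher in every depleted sample than in any control, at adjusted p of 0.362 and 0.620 in the same limma fit. For ACVR1C the gap was narrow, with the highest control at 0.2926 FPKM and the lowest depleted sample at 0.2938 FPKM. These genes were named after their values were seen. BEST1, a marker of retinal pigment epithelium, was at 4.33 FPKM in OFD1-depleted replicate 2 and at most 0.0475 FPKM in the other 5 samples.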
